A study of Mus musculus with 44 samples.

Results

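The mRNAs of the cytosolic ribosomal proteins were followed through 12 groups of sorted mouse plasma cells. Members were the rows whose gene symbol is Rpl or Rps followed by a number and at most a short letter suffix, together with Rpsa, Rplp0, Rplp1 and Rplp2, with a mean level of at least 1 CPM (counts-per-million, scaled to library size). Of 54960 rows in the table, 84 had such a name and 79 reached that level, 47 for the large and 32 for the small ribosomal subunit. All 79 were among the 12457 genes with enough counts to be tested. Just below the threshold lay Rpl6l, with a mean of 0.989 CPM, and Rpl39l, with 0.154 CPM. Just above it lay Rps4l and Rps21, with 2.91 and 10.4 CPM, all before TMM scaling of the library sizes.

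The study followed the maturation of long-lived plasma cells, the antibody-secreting cells that persist in bone marrow and spleen. All mice had a genotype given as BEC-YFP and all had received tamoxifen, which the labels use as the zero of time. The promoter and alleles behind that name are not given in the sources used here. CD138-high, B220-negative cells were sorted into a YFP+ fraction, labelled LLPC, and a YFP- fraction, labelled bulk plasma cells (TOM in the sample titles). Bone marrow and spleen were taken 5 days after tamoxifen from mice treated at 24 weeks of age, and 90 days after tamoxifen from mice treated at 24 weeks or at 6 to 8 weeks (young mice below). Each of the 12 groups held 3 or 4 libraries, 43 in all, taken here as 13 mice. At day 90 the sample titles name the mouse. At day 5 most titles carry only a date, and libraries that share a date were taken as 1 mouse. Mouse and date cannot be told apart there. The day 5 mice are called mouse 1 to mouse 4 here, and mouse 4 has only a YFP+ spleen library in these groups. A marrow library of mouse 4, whose title and cell type label disagree on its sort, was put in no group. The 24-week mice of day 90 carry the names M2, M3, F15 and F12.

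A cytosolic ribosome joins a small subunit, which binds and decodes the mRNA, to a large subunit, which forms the peptide bond and releases the chain through a tunnel. Each protein is normally present in a single copy per ribosome apart from the acidic stalk proteins Rplp1 and Rplp2, so cells make these proteins in matched amounts. Many of their mRNAs begin with a run of pyrimidines, the terminal oligopyrimidine or TOP tract, through which the mTORC1 pathway controls their translation together with that of several translation factors. Plasma cells devote most of their protein synthesis to antibody.

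RefSeq (GRCm38.p6) gave a listed transcription start for 58 of the 79 members. In 27 of them (46.6%) a C followed by at least 4 further C or T bases, on the gene's own strand, started within 5 bases of that start, against 18.46% of 27025 mouse starts read in the same way. The 30-base windows below show this shared feature in members of both subunits, followed by 2 members whose window has no such run. Each window holds 12 bases before the listed start and 18 from it onwards, and capitals mark the tract. They lie at chr4:86857350-86857379 (minus strand, Rps6), chr17:33955648-33955677 (minus, Rps18), chr7:118116130-118116159 (minus, Rps15a), chr11:114668568-114668597 (plus, Rpl38), chr7:45128728-45128757 (minus, Rpl13a), chr7:141447639-141447668 (plus, Rplp2), chrX:74270804-74270833 (plus, Rpl10) and chr9:120127754-120127783 (plus, Rpsa).
Rps6: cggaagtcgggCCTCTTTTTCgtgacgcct
Rps18: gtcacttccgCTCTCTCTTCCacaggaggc
Rps15a: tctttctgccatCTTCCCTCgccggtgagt
Rpl38: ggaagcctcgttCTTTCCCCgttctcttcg
Rpl13a: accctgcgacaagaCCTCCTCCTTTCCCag
Rplp2: gtcagcgtCTTCCTTTCgccgccggacgcc
Rpl10: gttacagtggaagataggccgcctatataa
Rpsa: ggttatttaaggacgtcatttccggccgcc
In Rpl38 and Rps15a the run began on the listed first base itself, and in Rps18 it began 2 bases before it. A start annotated a few bases away from the one a cell uses would hide a tract, so a window without one says nothing of how that mRNA is translated. Another 4 letter patterns were counted on both strands of the 300 bases around each start (250 before and 50 after), and no pattern contains another. CCGGAAGT, the core bound by ETS factors, stood in 20.7% of the members' promoters and in 4.0% of all promoters. AAGATGGC, a YY1 core, stood in 6.9% against 2.88%, the E box CACGTG in 8.6% against 7.24%, and TATAAA in 8.6% against 14.16%.

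Library totals ran from 6643308 to 12663115 counts. The summed level of 8 plasma cell markers, Jchain and Xbp1 among them, lay between 183233 and 749765 CPM, while the B cell factor Pax5 did not exceed 0.976 CPM in any assigned library. All 8 B cell markers, Pax5 among them, summed to between 2327 and 4280 CPM, with Cd79a reaching 2886 CPM and Ms4a1 182 CPM. Summed levels of 8 T cell markers ran from 0.943 to 63.7 CPM, of 11 neutrophil and precursor markers from 0 to 2637 CPM, of 8 erythroid markers from 1.38 to 3426 CPM and of 9 monocyte and macrophage markers from 916 to 8620 CPM. Because these are sorted bulk samples, fewer cells of a type and less RNA per cell cannot be told apart.

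The 79 members together made up between 1.2% and 3.0% of a library's counts. The highest mean levels belonged to Rplp0, the anchor of the acidic stalk that recruits elongation factors, at 1128 CPM, and to Rpl13 at 815 CPM. Divided by transcript length, Rpl36al led with 1335 CPM per kilobase, followed by Rpl13 with 1045, Rps14 with 968, Rpl10 with 961 and Rplp0 with 830 CPM per kilobase. Rps4l, an autosomal paralog of the X-linked Rps4x, was lowest at 3.64 CPM per kilobase, then Rps20 with 24.0 (its annotated principal transcript is unusually long, at 3706 bases), Rpl39 with 24.4 and Rps21 with 26.1. The range of mRNA per kilobase was thus wide, with the paralogs Rpl36al and Rps4l at its ends. Each value depends on the annotated transcript taken for the gene. Counts were not whole numbers in 100% of libraries for Rpl36al and Rpl13 and in 97.7% for Rpl10, so reads could be split with other genes there. This share was 16.3% for Rplp0 and 0% for Rps14.

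Stability across groups also differed among members. The coefficient of variation of the 12 group means was smallest for Rpl4, which lines the exit tunnel, at 0.0752, then Rpl3 at 0.0844 and Rplp0 at 0.118. It was largest for Rps4l at 0.443, Rps12 at 0.370 and Rpl38 at 0.367. Across the 79 members this coefficient went down as transcripts got longer (Spearman's rho −0.605) and as the mean CPM got higher (rho −0.753). Mean CPM and this coefficient come from the same libraries and share their count noise, whereas transcript length comes from the annotation. No p is given for either relation. Transcript length and CPM per kilobase were nearly unrelated (rho 0.131).

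**Figure D1:**
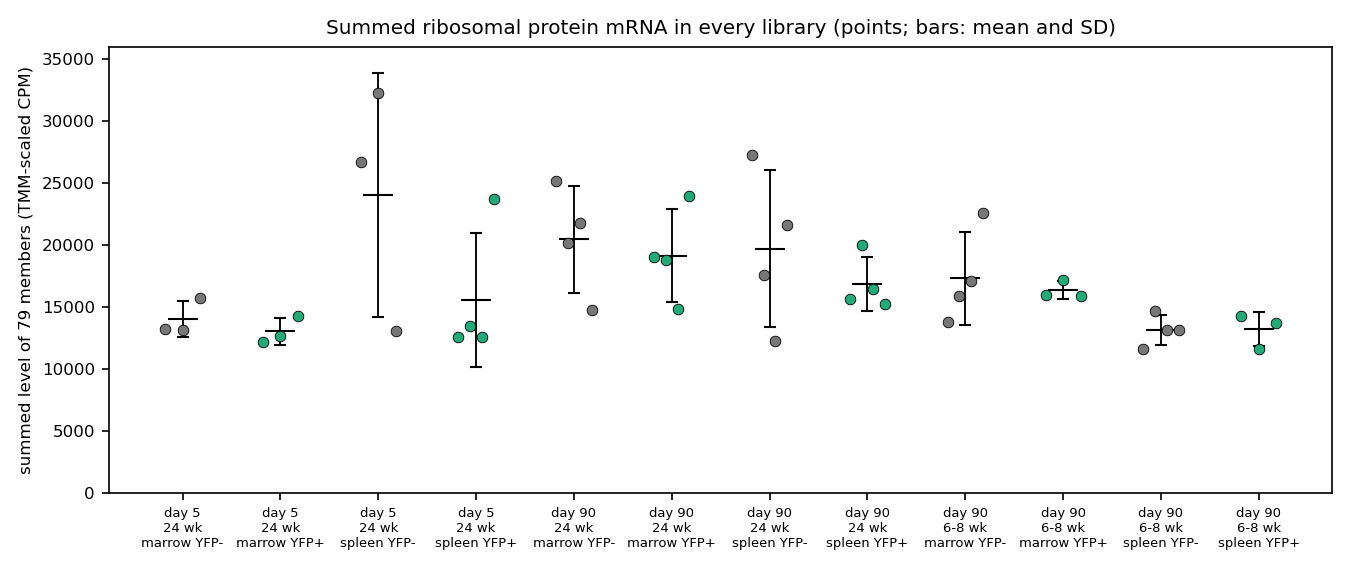
Summed level of the 79 cytosolic ribosomal protein genes in CPM (vertical axis, from 0), 1 point per library and a line at each group's mean, for the 12 groups along the horizontal axis. The day 5 spleen groups hold both the highest library, 32266 CPM, and the YFP- library of mouse 3 at 13094 CPM, and the 4 young spleen YFP- libraries lie between 11614 and 14659 CPM.

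Summed over the members, the 12 group means lay between 13031 ± 1083 CPM (SD, n = 3; YFP+ marrow at day 5) and 24035 ± 9869 CPM (SD, n = 3; YFP- spleen at day 5). The plot of summed levels by library shows that the spread within groups was uneven. In YFP+ marrow of young mice the libraries held 15973, 17190 and 15907 CPM. In YFP- spleen of 24-week mice at day 90 they held 27253, 17581, 12264 and 21642 CPM, so a single group covered most of the range seen in the whole series.

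The clearest case lay in the spleen at day 5, where YFP+ cells were compared with YFP- cells. YFP- libraries of mice 1, 2 and 3 held 26744, 32266 and 13094 CPM of the members together. YFP+ libraries of mice 1 to 4 held 12602, 13427, 12562 and 23703 CPM. The YFP- library of mouse 3 lay among the low YFP+ libraries, and the YFP+ library of mouse 4 lay near the YFP- library of mouse 1, so the groups overlapped. The members were 2.34% of counts in that library of mouse 4 and 2.50% in its unassigned marrow library. Within a mouse, the YFP+ to YFP- ratio of the summed level was 0.471 in mouse 1 and 0.416 in mouse 2, but 0.959 in mouse 3. The number of members lower in YFP+ cells was 78, 79 and 53 of 79 in those mice.

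Individual members showed the same layout. Rpsa, a small subunit protein next to the mRNA exit that is also known as the laminin receptor precursor, stood at 806, 979 and 296 CPM in the YFP- libraries of mice 1 to 3. It stood at 388, 312, 281 and 495 CPM in the YFP+ libraries of mice 1 to 4. Mouse 3 alone kept the groups from separating, with a YFP- value below 3 of the 4 YFP+ values. Rpl10, an X-linked protein that joins the large subunit last, near its catalytic centre, stood at 1242, 1575 and 631 CPM in YFP- and at 570, 623, 608 and 968 CPM in YFP+ libraries. Rps18, in the head of the small subunit, stood at 439, 589 and 230 CPM in YFP- and at 160, 169, 193 and 438 CPM in YFP+ libraries. Rplp0 was flatter, with 1518, 1461 and 1038 CPM against 957, 1089, 971 and 1431 CPM. Rps6, the small subunit protein phosphorylated by S6 kinase, stood at 692, 813 and 411 CPM in YFP- and at 370, 400, 425 and 691 CPM in YFP+ libraries.

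edgeR's quasi-likelihood test, fitted to all genes and libraries with Benjamini-Hochberg adjustment, called 0 members at an adjusted p under 0.05 in the day 5 spleen comparison. It called 0% of all genes. DESeq2 and limma-voom also called 0 members; over the 18 comparisons of the series DESeq2 called from 0% to 5.32% of all genes and limma-voom from 0% to 5.05%. At an unadjusted p under 0.05, 51 members were lower in YFP+ cells and 0 were higher, where 8.26% of all genes were lower. The median member difference was −0.72 on the log2 scale with quartiles of −0.79 and −0.60, against an all-gene median of 0.00 with quartiles of −0.45 and 0.40. Of the 79 members, 78 had an estimate below 0. Among all genes, between 48.0% and 53.0% had a positive difference in any 1 of the 18 comparisons without the mouse term. That is the background for counts of signs in those comparisons. No such background was computed for the counts of signs within single mice, above and below. The estimates were −0.91 ± 0.25 (SE) for Rpsa with an adjusted p of 0.219, −0.73 for Rpl10 with 0.233, −0.80 for Rps18 with 0.247, −0.44 for Rps6 with 0.344 and −0.27 for Rplp0 with 0.424. Data were also simulated with this design, with 1 dispersion for all genes (biological coefficient of variation 0.425) and no effect of the mouse. On these the same test recovered 2 of 100 genes changed by 1 log2 unit and 51 of 100 changed by 2 log2 units. The setting was not fitted to the members, so these counts do not say what the test could detect among them.

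**Figure D2:**
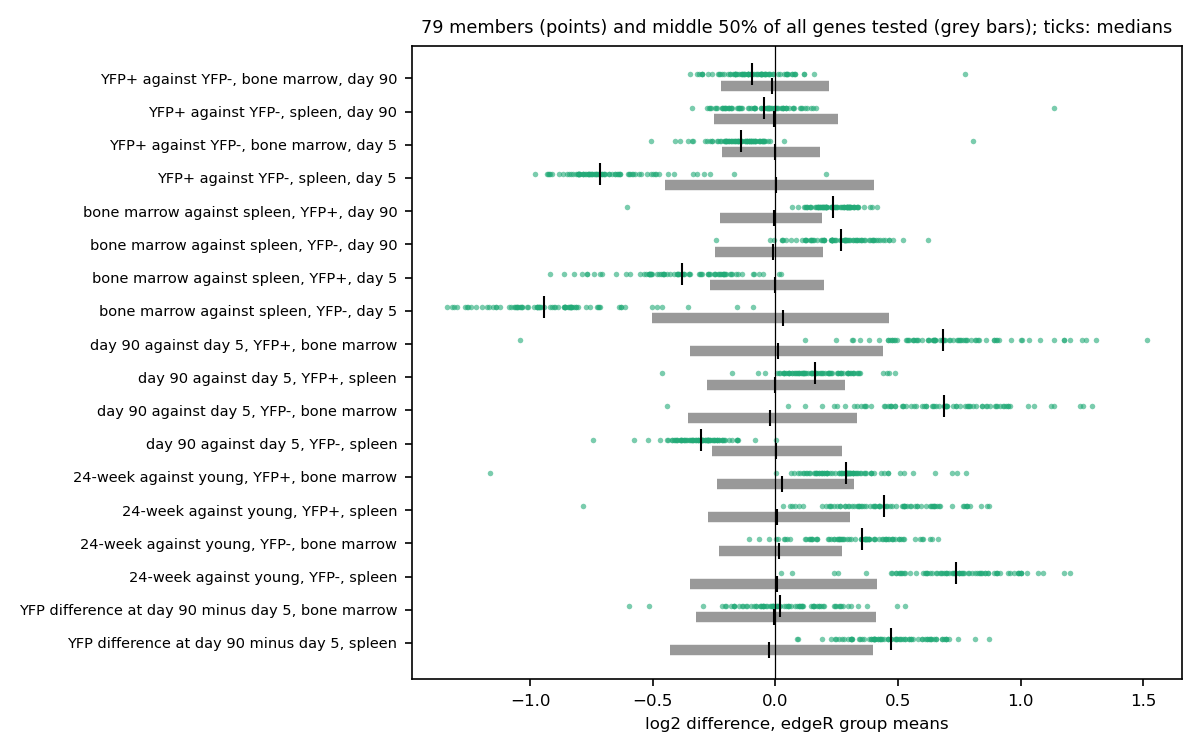
Log2 difference of each of the 79 members (points) in each of 18 comparisons from edgeR's fit without the mouse, above a grey bar from the lower to the upper quartile of all 12457 genes tested. Ticks mark medians. In YFP+ against YFP- spleen at day 5 the member median is −0.72, and in YFP- marrow against YFP- spleen at day 5 it is −0.95.

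The libraries of each mouse were also compared with each other by adding the mouse to the model, and with that term the day 5 spleen result changed. Of the 79 members, 40 fell in YFP+ cells and 0 rose, beside 2.26% of all genes lower and 3.66% called in either direction. The member median was −1.01. The members that passed came from both subunits, 25 of 47 in the large and 15 of 32 in the small. Both proteins bound to 5S ribosomal RNA, Rpl5 (−0.99) and Rpl11 (−1.03), fell with an adjusted p of 0.0440; free of the ribosome, this pair restrains Mdm2. All 3 proteins at the mRNA entry site fell, as did 2 of 4 at the mRNA exit, 5 of 9 at the polypeptide tunnel and its exit, and 4 of 4 X-linked members. The 3 stalk proteins did not pass, with Rplp1 at −1.21 (0.0527), Rplp2 at −1.09 (0.0591) and Rplp0 at −0.41 (0.0932).

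Among single members with the mouse in the model, Rps18 fell by 1.27 ± 0.28 on the log2 scale (edgeR adjusted p 0.0352). Rpsa fell by 1.01 ± 0.25, Rpl9 by 1.02 ± 0.26 and Rpl10 by 0.91 ± 0.23, each with an adjusted p of 0.0440. Several others lay just outside the threshold. Rps27a, made as a fusion with ubiquitin, had −1.15 and an adjusted p just above the threshold, Rps6 had −0.68 ± 0.22 and 0.0581, Rps27l had −0.93 and 0.0673, and Rpl36al had −0.81 and 0.0698. Rps4l alone had a positive estimate, 0.52, with an adjusted p of 0.531.

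These calls rested on few animals. In fits added after the data were seen, again with the mouse in the model, leaving out mouse 1 or mouse 2 left 0 members called. Leaving out mouse 3 gave 77, and leaving out mouse 4, which has no YFP- partner, gave 46. In the model without the mouse, leaving out the YFP- library of mouse 3 gave 57. These counts stand without the share of all genes called in the same fits. The plot of day 5 spleen levels within each mouse shows every member.

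**Figure D3:**
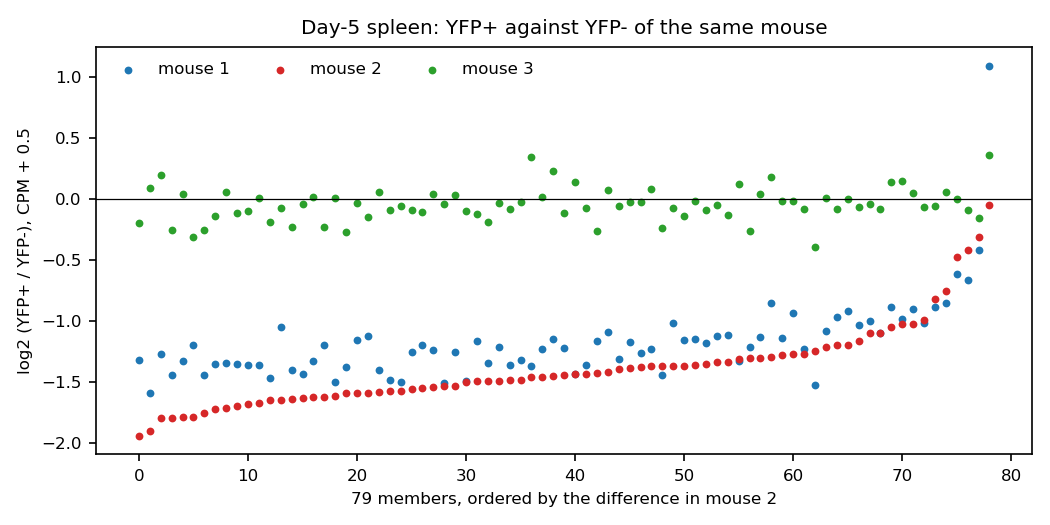
Log2 ratio of YFP+ to YFP- spleen cells of the same mouse at day 5 (vertical axis, on CPM plus 0.5) for the 79 members, ordered along the horizontal axis by mouse 2, with a colour per mouse. The points lie below 0 for 78 members in mouse 1, 79 in mouse 2 and 53 in mouse 3.

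Other measures moved with the members in these libraries. Sdc1, which encodes CD138, the sort marker, stood at 325, 149 and 587 CPM in the YFP- libraries of mice 1 to 3. It stood at 909, 690, 615 and 321 CPM in the YFP+ libraries of mice 1 to 4. The 3 of these 7 libraries with the least Sdc1 also held the 3 highest summed levels of the members. Sdc1 itself had a difference of 0.84 ± 0.35 (edgeR adjusted p 0.283), or 1.12 ± 0.35 with the mouse in the model (0.0548). Mitochondrial transcripts made up 0.776% to 1.64% of counts in the YFP- libraries and 0.609% to 1.21% in the YFP+ libraries. Monocyte and macrophage markers stood beside the members too, with a summed level of the 9 genes of 2766 to 4967 CPM in the YFP- and 945 to 4171 CPM in the YFP+ libraries. Of these 9, 8 had an estimate below 0, 6 had an unadjusted p under 0.05 and 0 passed; with the mouse in the model 9 were below 0 and 1, Cd68 (−1.58, adjusted p 0.0352), passed. All 8 erythroid markers were below 0 with and without the mouse in the model, with sums of 12.2, 2575 and 21.1 CPM in the YFP- and 7.09, 5.64, 8.00 and 467 CPM in the YFP+ libraries, and 0 passed. All 5 eosinophil, basophil and mast cell markers were below 0 in both models, and 0 passed. The proliferation gene Mki67 stood at 56.2, 38.1 and 44.5 CPM in the 3 libraries with the highest member sums, those of YFP- mice 1 and 2 and YFP+ mouse 4, and at 24.3 CPM or less in the other 4. The plasma cell factor Xbp1 rose by 0.63 with the mouse in the model (edgeR adjusted p 0.0440). The 8 plasma cell markers together did not follow it in each mouse. They summed to 334411, 365116 and 223807 CPM in the YFP- libraries of mice 1 to 3. In the YFP+ libraries of mice 1 to 4 they summed to 257561, 344641, 295637 and 281411 CPM. Prdm1 stood at 146, 146 and 74.9 CPM in YFP- and at 169, 134, 99.0 and 120 CPM in YFP+ libraries. The macrophage gene C1qb ranged from 17.0 to 555 CPM in the YFP- and from 0.514 to 30.3 CPM in the YFP+ libraries, with a difference of −4.26 (adjusted p 0.247). Their part in the members' difference was not tested.

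**Figure D4:**
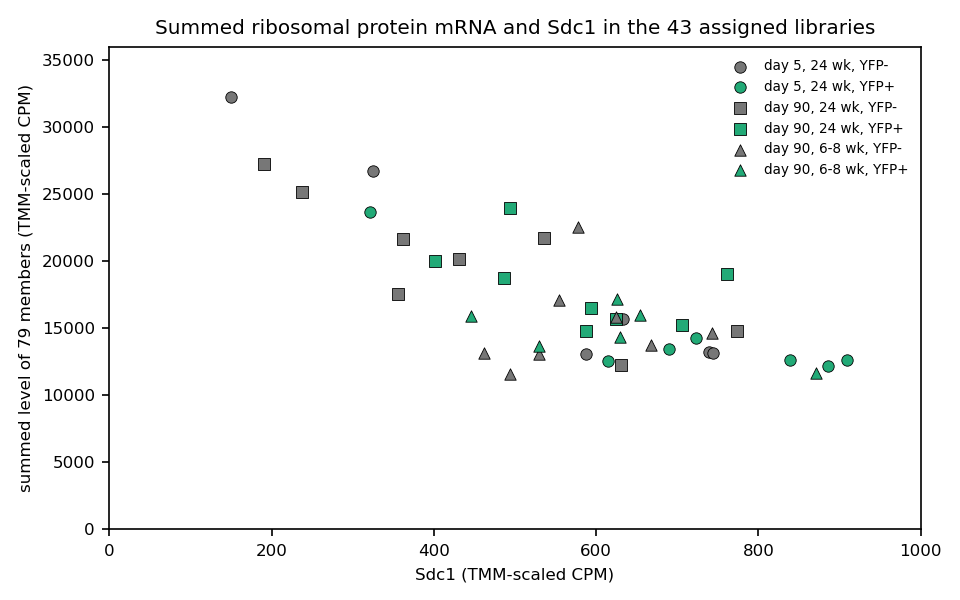
Summed level of the members (vertical axis, CPM) against Sdc1 (horizontal axis, CPM) for the 43 libraries, with a marker shape per cohort and a colour per sort. The day 5 spleen YFP- library with 149 CPM of Sdc1 has the highest summed level, 32266 CPM.

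Genes related to the members gave a mixed record in the same comparison with the mouse in the model. There 2.26% of all genes passed as lower. Of 18 translation factors and other mRNAs with a TOP tract, 7 fell and 0 rose, with a list median of −0.59. The 3 with the smallest p were Npm1, a nucleolar chaperone (−0.80), Eef1b2, an exchange factor for elongation factor 1A (−1.25), and Tpt1 (−0.99). Of 37 ribosome biogenesis factors, 1 fell, Rpf2 (−1.02), which helps place the 5S particle, and the list median was 0.17. Of 78 mitochondrial ribosomal proteins, 1 fell, Mrpl58 (−0.83), with a list median of −0.53. The counts of 1 in 37 and 1 in 78 are near the share of all genes. Of 5 cytosolic ribosomal proteins whose names fall outside the rule, 1 fell, Rack1 (−0.88), the scaffold on the small subunit. Of 21 regulators, 0 passed and 3 had an unadjusted p under 0.05, with a median of 0.20. The unadjusted share of all genes in this fit is not given.

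Transcript length moved with the direction as well. Member transcripts had a median length of 681 bases, against 2555 bases for the genes tested. In the day 5 spleen comparison without the mouse term, other genes under 500 bases had a median of −0.55 (244 genes) beside −0.74 for 18 members. From 1500 bases to under 2500 bases, other genes had 0.17 (3116 genes) beside −0.74 for 5 members. Other genes under 500 bases thus had a median below 0 as well, and members had −0.74 in both of these classes. Across the 79 members, transcript length and the difference had a Spearman's rho of 0.159 there. With the mouse in the model, which gave the calls, it was 0.424. The part of length in the result was not tested.

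**Figure D5:**
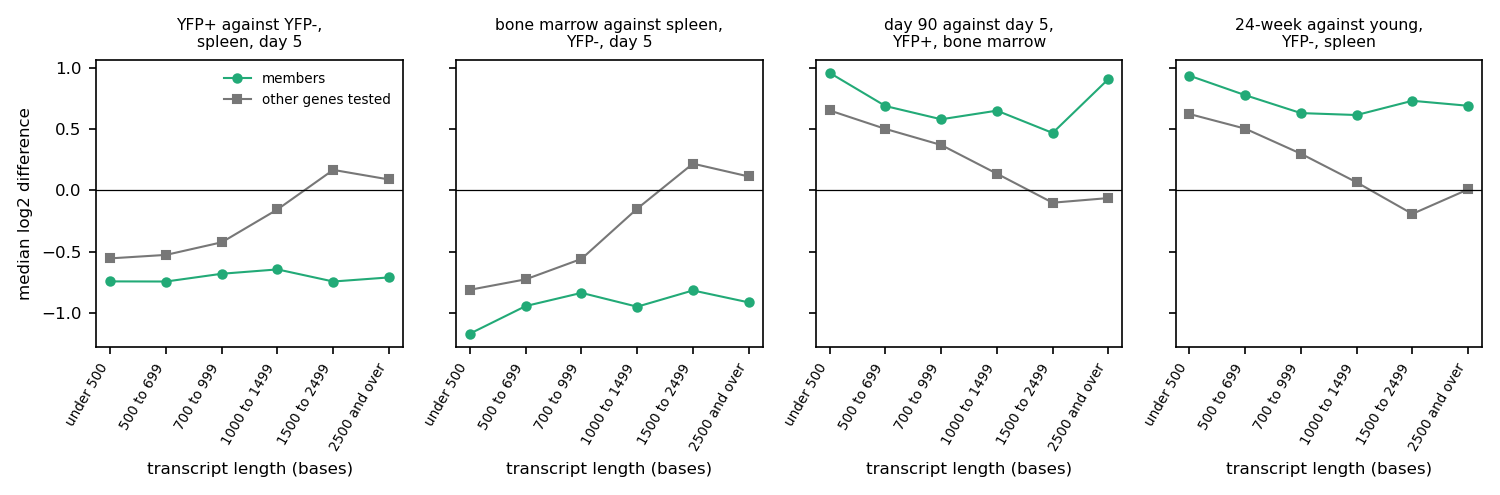
Median log2 difference (vertical axis) by transcript length class in bases (horizontal axis) for members and for other genes tested, in 4 comparisons. Other genes in the day 5 spleen comparison go from −0.55 under 500 bases to 0.09 at 2500 bases and over, where only 1 member lies.

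In the marrow at day 5, YFP+ and YFP- cells differed little. The summed level was 13244, 13116 and 15723 CPM in YFP- and 12182, 12659 and 14251 CPM in YFP+ cells of mice 1 to 3. Within each mouse the YFP+ library held slightly less, with ratios of 0.920, 0.965 and 0.906. The member median was −0.14 with 77 of 79 below 0 (−0.21 to −0.030 when 1 library was left out, the latter without the YFP- library of mouse 3), and 0 members passed edgeR's test at an adjusted or an unadjusted p under 0.05, beside 0% and 2.04% of all genes. DESeq2 and limma-voom called 0 members too. For 7 members every YFP+ library lay below every YFP- library, beside 3.37% of all genes.

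At day 90 the YFP+ and YFP- cells of either organ had close levels, with both ages weighted equally. The member median was −0.10 in marrow and −0.05 in spleen, and neither kept its sign when each library was left out in turn. It became 0.011 in marrow without the young YFP- library of M2 and 0.075 in spleen without the 24-week YFP- library of M2. With edgeR or DESeq2, 0 members passed in either organ, and edgeR called 0.458% and 3.53% of all genes. At an unadjusted p, 0 members passed in marrow and 1 in spleen, beside 8.67% and 15.3% of all genes. Single mice went both ways. In 24-week marrow the YFP+ to YFP- ratio of the summed level was 0.756 in M2, 0.930 in M3, 0.680 in F15 and 1.63 in F12, and in spleen it was 0.575, 1.14, 1.34 and 0.703. In M2 and M3 marrow the direction rested on TMM scaling (factors of 0.634 and 0.763 for their YFP- libraries): as unscaled shares of counts the members were 2.04% in YFP+ against 1.59% in YFP- cells of M2, and 1.55% against 1.54% in M3. Within these mice 79 of 79 members were lower in YFP+ marrow of F15 and 79 of 79 were higher in that of F12. These counts stand without the share of all genes in the same mice. In the 2 young mice with both sorts, ratios lay between 0.930 and 1.05.

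The spleen difference at day 90 was compared directly with that at day 5, in 24-week mice alone. All 79 members had a higher YFP difference at day 90, with a median of 0.47, but 0 passed edgeR's test (0.0562% of all genes did) or its unadjusted form (6.59%), and DESeq2 and limma-voom called 0. With the mouse in the model the median was 0.84 and 44 members had an unadjusted p under 0.05, all higher, beside 7.48% of all genes, still with 0 called beside 0.731%. In marrow the same difference had a median of 0.02, with 0 members called by edgeR, DESeq2 or limma-voom, 0 at an unadjusted p (3.63% of all genes), and 0.0161% of all genes called.

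Rps4l had the opposite sign to the member median between YFP+ and YFP- cells at day 90. In young spleen it stood at 0.871, 2.37, 2.23 and 0.826 CPM in YFP- and at 4.47, 6.16 and 5.80 CPM in YFP+ libraries, without overlap. In young marrow it stood at 2.06, 1.14, 1.95 and 1.29 CPM against 3.67, 5.02 and 3.60 CPM, again without overlap. In 24-week spleen the groups overlapped, with 1.53, 2.41, 1.88 and 3.22 CPM against 4.45, 2.25, 2.64 and 3.38 CPM. In 24-week marrow they overlapped throughout, with 1.01 to 2.36 CPM in YFP- and 0.655 to 2.74 CPM in YFP+ libraries. Its spleen difference was 1.14 ± 0.39 on the log2 scale and did not pass edgeR's test (adjusted p 0.0983, or 0.123 with the mouse in the model), while limma-voom gave 1.20 and an adjusted p of 0.0498, beside 5.05% of all genes called. In marrow the difference was 0.77 ± 0.40 with an edgeR adjusted p of 0.588. In YFP+ marrow Rps4l also differed in sign from most members with age, at −1.16 for 24-week against young mice (adjusted p 0.909). Its X-linked paralog Rps4x had −0.18 ± 0.18 in spleen (adjusted p 0.722) and −0.04 in marrow. Rps4l is thinly covered, with 27.7 counts per library on average, and reads could be split between the paralogs, although its counts were whole numbers in every library.

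Marrow and spleen were compared within each sort. In YFP- cells at day 5 the summed level was 13244, 13116 and 15723 CPM in marrow against 26744, 32266 and 13094 CPM in spleen of mice 1 to 3. All 79 members were lower in the marrow of mice 1 and 2, and 78 were higher in that of mouse 3. Rps13, a small subunit protein, stood at 74.2, 69.7 and 87.0 CPM in marrow and at 201, 250 and 68.6 CPM in spleen, and had the smallest p of the members at −1.17 ± 0.30 (edgeR adjusted p 0.138). The member median was −0.95 and 0 members passed, beside 0.00803% of all genes, while 73 were lower at an unadjusted p, beside 10.3% of all genes. DESeq2 called 30 members lower, beside 1.73% of all genes in either direction, and limma-voom called 0. Leaving out the YFP- spleen library of mouse 3 gave 73 called with edgeR, a count given without the share of all genes in that fit. The same Sdc1, C1qb and length differences stood beside this result: C1qb had −5.98 (adjusted p 0.144), Sdc1 had 0.99 (0.179), 7 of 9 monocyte and macrophage markers were below 0, and other genes under 500 bases had a median of −0.81. Their part was not tested.

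In YFP+ cells at day 5 the marrow had 12182, 12659 and 14251 CPM and the spleen 12602, 13427, 12562 and 23703 CPM. The member median was −0.38, with 0 members called by edgeR, DESeq2 or limma-voom, 0% of all genes called by edgeR, and 3 members lower at an unadjusted p beside 2.39% of all genes. It was −0.03 with the mouse in the model. Mouse 4, whose spleen library was the highest, has no marrow partner here. At day 90 the marrow minus spleen median was 0.24 in YFP+ cells (78 of 79 above 0) and 0.27 in YFP- cells (76 of 79). Single mice went the other way. In YFP+ cells 62 members were lower in the marrow of M3 and 68 in that of F15, and in YFP- cells 56 were lower in 24-week M2 and 78 in F12. In 24-week YFP- cells the direction of the mean summed level rested on TMM scaling, with 20467 CPM in marrow and 19685 CPM in spleen. As unscaled shares of counts these means were 1.74% and 1.97%, and those of young mice 1.64% and 1.39%. In 24-week M3 the scaled sums were 20184 and 17581 CPM but the unscaled shares 1.54% and 1.64%. All 8 erythroid markers were higher in YFP- marrow, each at an unadjusted p under 0.05, and 0 passed. There 0 members passed with any of the 3 tools, beside 0.193% and 0.136% of all genes with edgeR, and 2 and 8 members had an unadjusted p under 0.05, beside 7.39% and 8.65%.

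Day 90 was compared with day 5 in 24-week mice. In YFP+ marrow the summed level was 12182, 12659 and 14251 CPM at day 5 and 19020, 18771, 14806 and 23995 CPM at day 90, with no overlap. In YFP- marrow it was 13244, 13116 and 15723 CPM at day 5 and 25165, 20184, 21763 and 14757 CPM at day 90, where 1 library overlapped. As unscaled shares of counts, 2 of the 4 YFP- libraries of day 90 (1.54% and 1.58%) lay within the day 5 range of 1.31% to 1.59%. Rps29, a small zinc-binding protein of the small subunit, stood at 27.8, 20.3 and 30.8 CPM in YFP+ marrow at day 5 and at 96.7, 45.3, 34.8 and 83.6 CPM at day 90. Its difference was 1.31 ± 0.42 with an edgeR adjusted p of 0.208.

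For all members the medians were 0.68 in YFP+ and 0.69 in YFP- marrow, with 78 of 79 above 0 in each. None passed the adjusted test of edgeR, which called 0.136% and 0% of all genes, and DESeq2 and limma-voom called 0 members. At an unadjusted p, 59 and 49 members were higher, beside 6.78% and 6.07% of all genes. In YFP+ marrow 56 members had every day 90 library above every day 5 library, beside 5.80% of all genes, and in YFP- marrow 26 did, beside 2.70%. The day 5 and day 90 mice are different animals, so day and cohort cannot be told apart. In YFP+ marrow most erythroid, monocyte and macrophage, and neutrophil and precursor markers also had estimates above 0. Unadjusted p lay under 0.05 for 7 of 8 erythroid, 6 of 9 monocyte and macrophage and 6 of 10 neutrophil and precursor markers tested, and 0 of the 8, 0 of the 9 and 1 of the 10 had an estimate below 0, with 0 past the adjusted test. Neutrophil and precursor sums were 1.47 to 105 CPM at day 5 and 245 to 2637 CPM at day 90. Mean sums went down for NK cell markers (49.5 to 23.6 CPM), stromal and endothelial markers (25.6 to 20.5 CPM) and T cell markers (8.95 to 8.12 CPM). They went up for plasmacytoid dendritic cell markers (2485 to 3278 CPM), for eosinophil, basophil and mast cell markers (1016 to 2403 CPM) and for megakaryocyte and platelet markers (4.89 to 7.19 CPM). Longer members also rose less, with a Spearman's rho of transcript length and difference of −0.566 in YFP+ and −0.605 in YFP- marrow. The part of these markers and of length in the result was not tested. In spleen the medians were 0.16 in YFP+ and −0.30 in YFP- cells, and 0 members passed with any of the 3 tools or at an unadjusted p, beside 0.361% and 0% of all genes adjusted and 7.87% and 4.20% unadjusted.

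Age at treatment was compared at day 90. In YFP- spleen the young libraries held 11614, 14659, 13110 and 13159 CPM and the 24-week libraries 27253, 17581, 12264 and 21642 CPM. F15 alone among the 24-week mice lay within the young range. Rpl7a, a large subunit protein, stood at 101, 135, 115 and 116 CPM in young and at 247, 162, 120 and 246 CPM in 24-week libraries, a difference of 0.73 ± 0.22 (edgeR adjusted p 0.247). Over the members the median was 0.74 with 79 of 79 above 0. With edgeR 0 members passed, beside 0% of all genes, DESeq2 and limma-voom called 0, and 72 were higher at an unadjusted p, beside 7.79% of all genes. Leaving out the spleen library of F15 gave 27 called, a count given without the share of all genes in that fit.

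The other age comparisons had smaller medians. The median was 0.44 in YFP+ spleen, 0.29 in YFP+ marrow and 0.35 in YFP- marrow, with 78, 78 and 76 of 79 members above 0. Leaving out 1 library moved the marrow medians to between 0.14 (without YFP+ F12) and 0.42 in YFP+ cells, and between 0.20 (without 24-week YFP- M2) and 0.58 (without young YFP- M2) in YFP- cells. As unscaled shares of counts, the members averaged 1.74% in 24-week and 1.64% in young YFP- marrow. In YFP+ marrow 7 of 8 erythroid markers were higher in 24-week mice at an unadjusted p under 0.05, and 0 passed. None passed with edgeR, DESeq2 or limma-voom, beside 0.0321%, 0.0241% and 0% of all genes with edgeR. At an unadjusted p, 8, 2 and 1 members passed, beside 4.75%, 5.47% and 2.92%. In YFP+ spleen the young libraries held 14313, 11635 and 13707 CPM and the 24-week libraries 15670, 19996, 16487 and 15216 CPM, without overlap. There 54 members were higher without overlap and 1 was lower, beside 4.81% and 5.06% of all genes. Sdc1 was −0.22 there (adjusted p 0.976) and −0.54 in YFP- spleen (0.460), and 1 of 9 monocyte and macrophage markers was below 0 in YFP- spleen. Transcript length had a Spearman's rho with the members' age differences of −0.643 in YFP+ and −0.592 in YFP- spleen. In marrow it was −0.512 in YFP+ and −0.610 in YFP- cells. The part of these measures in the results was not tested.

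Genes that set the supply of ribosomal proteins were read from a list of 21 regulators. Myc, the transcription factor that drives ribosome production, fell in YFP+ marrow at day 90 by 1.11 ± 0.26 (edgeR adjusted p 0.0254, or 0.000842 with the mouse in the model), while the member median there was −0.10. That call was lost when any of 6 marrow libraries was left out: YFP- of F15 (adjusted p 0.0662), YFP+ of M3 (0.0609), YFP+ of F12 (0.0507), and young YFP- M2 (0.0568), YFP+ F2 (0.123) and YFP+ F9 (0.0890). It was also lost in a fit of only the groups compared (0.0915). The difference itself stayed between −1.35 and −0.97 when 1 library was left out and between −1.20 and −1.10 under the other settings. In spleen at day 90 it passed with the mouse in the model, at −0.72 (0.0110), as did Mxi1, a Myc antagonist, at −0.52 (0.0175). Rps6kb1, the S6 kinase that phosphorylates Rps6, rose by 0.41 (0.0444). Pdcd4, an inhibitor of translation initiation, was lower in marrow than in spleen of YFP+ cells at day 90, at −0.46 (0.0491). In these comparisons edgeR called 0 members, while limma-voom called Rps4l in spleen at day 90. Of the regulators, only Myc in marrow was followed through the fits that left out 1 library. The values for Rps6kb1 and Pdcd4 lay close to the threshold. The share of all genes called at day 90 with the mouse in the model is not given.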

How the data were processed

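Members and gene lists were chosen with earlier results of these data known. Per the labels, libraries were made with SMART-Seq v4 and Nextera XT, and 3 tools (RSEM 1.3.1, DESeq2 1.26.0, STAR 2.6.1b) and 2 builds (GRCm39, GRCm38) are listed in the submitters' processing notes without a role. The authors deposited expected counts per gene (3.10% of values not whole), which were rounded; immunoglobulin genes are not in the table. In R 4.3.3, edgeR 4.0.16 (TMM, filterByExpr with a minimum count of 10, robust quasi-likelihood fit, Benjamini-Hochberg over 12457 genes) fitted 1 mean for each of 12 groups over 43 libraries. CPM use TMM-scaled library sizes. Alternatives were DESeq2 1.42.0, limma-voom (limma 3.58.1), other scalings and filters, leaving out each library and mouse as a block. Deviations from group means had a median r of 0.181 in 57 pairs of libraries of 1 mouse, against −0.0899 in 232 pairs of different mice in a cohort. Only the latter include pairs from the same group, which centring on the group mean pushes below 0. The gap is thus partly built in. Libraries were paired by mouse name, or by date at day 5. Members named were up to 3 per direction with the smallest p, the paralogs, those extreme in level or variation, and Rpsa, Rplp0, Rps6 and Rpl10; Rpl5, Rpl11, Rplp1, Rplp2 and Rps27a were added after their values were seen. The test was checked on simulated data. An unassigned library was left out of all comparisons. Library totals of 6643308 to 12663115 counts limit precision for low members.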

Additional observations from a re-analysis of the deposited data

Results flagged for a closer look

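Single libraries stood apart from the other 3 of their group by Dixon's test in 4 of 35 checks, made on 5 measures in 7 groups of 4. Chance flags about 1 in 20 groups. In YFP+ spleen at day 5, the library of mouse 4 held 23703 CPM of the members together against 12562 to 13427 CPM in mice 1 to 3. Its Rpl10 level was 968 CPM against 570 to 623 CPM. In YFP+ spleen of 24-week mice at day 90, M3 had 1147 CPM of Rplp0 against 924 to 937 CPM. In YFP- spleen of young mice, M7 had 326 CPM of Rps6 against 401 to 411 CPM.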

How the results depend on the processing

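In 43 fits that each left out 1 library, 3 comparisons gained called members: the range was 0 to 57 for YFP+ against YFP- spleen at day 5, 0 to 73 for YFP- marrow against spleen at day 5 and 0 to 27 for 24-week against young YFP- spleen. These counts stand without the share of all genes called in each fit. Medians ranged from −1.07 to −0.39 in the first of these comparisons. They ranged from −0.49 to −0.040 for YFP+ marrow against spleen at day 5, from −0.63 to 0.0050 for YFP- spleen and from 0.044 to 0.54 for YFP+ spleen at day 90 against day 5, and from 0.18 to 0.84 for the change of the spleen YFP difference between days. The replicate block by mouse called 40 members in day 5 spleen, and moved the medians to −0.030 for YFP+ marrow against spleen at day 5 and to 0.84 for the change between days; it altered no other count of members. Other fits with the block were chosen after seeing the data. With DESeq2 size factors it called 55 (median −1.05), without mouse 3 it called 77 (−1.35) and without mouse 4 it called 46. Without mouse 1, without mouse 2 or without the 3 lowest Sdc1 libraries, the block called 0. The counts from these further fits with the block also stand without the share of all genes called. Without the 3 lowest Sdc1 libraries, of which only the YFP- library of mouse 2 is in that comparison, and without a block, the day 5 spleen median was −0.39. For YFP- marrow against spleen at day 5, DESeq2 called 30 members, beside 1.73% of all genes. The fit with no filter on low counts called 4 there, given without that share. In spleen at day 90 limma-voom called 1 member, Rps4l. Rps4l in day 5 spleen ran from −0.24 to 1.28 when 1 library was left out, changing sign in 3 fits (−0.24, −0.19, −0.0033). Myc in marrow lost its call in 6 of 15 leave-one-out fits.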

Other observations

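The marrow library of mouse 4, the mouse whose YFP+ spleen library stood apart at day 5, was put in no group. Members made up 2.50% of its counts against 1.19% to 1.59% in the other 6 marrow libraries of day 5. Its level of Rplp0 was 1531 CPM (unscaled) against 895 to 1145 CPM, and that of Sdc1 was 527 CPM against 639 to 868 CPM.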
